A study of Mus musculus with 2 samples.

Results

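Kinesins are motor proteins that use ATP to walk along microtubules or to take microtubules apart. The family splits by task. Mitotic kinesins build the spindle, hold and move chromosomes and finish cytokinesis, so their messages are abundant in dividing cells. Transport kinesins carry vesicles, mitochondria, RNA and proteins, and in neurons they supply the axon and the synapse. Other members act in cilia, where one of them tunes hedgehog signalling, or set microtubule length. Embryonic hindbrain at midgestation holds both a dividing ventricular zone and young neurons that are growing axons.

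The members are the protein-coding genes of the GENCODE M21 annotation whose symbol is Kif plus a number and at most a letter a, b or c, or Kifc plus a number. The rule found 41 genes of 22028 protein-coding genes, and of 55536 genes in all. By their textbook roles they were sorted into 13 mitotic kinesins, 15 transport kinesins, 6 kinesins of the cilium and hedgehog signalling, and 7 kinesins of microtubule dynamics and other roles. Cenpe, a mitotic kinesin whose symbol falls outside the rule, is given with the spindle partners.

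Poly(A) RNA was sequenced from hindbrain of healthy B6NCrl mouse embryos of both sexes, 12.5 days old, with no treatment and no mutant allele named in the labels. There was 1 group of 2 biological replicates, each a pool of many embryos: pool 1 held hindbrains of 120 embryos and pool 2 of 88. Pooling averages over embryos, so the spread between the pools is not the spread between animals, and no test between groups was possible. Pool 1 gave 31469575 estimated reads on genes and pool 2 gave 29261472. The spike-in RNAs took 3.31% of the estimated reads of pool 1 and 4.25% of pool 2. Levels below are in TPM, a unit of transcript abundance that is per length and per library. Comparisons between genes in this unit depend on the annotated transcript lengths.

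The tissue label was checked against markers. Of 6 hindbrain markers, 5 had 1 TPM or more in both pools, and they summed to 147 TPM in the first pool and 194 TPM in the second. Forebrain markers summed to 4.20 and 4.76 TPM, and Six3 and Emx1 were under 1 TPM in both pools. Progenitor markers (6 of 6 at 1 TPM or more) and neuron markers (7 of 7) were both present, the first at 2461 and 2256 TPM in sum and the second at 1938 and 2010 TPM. Other tissue was in the pools as well: erythroid markers (5 of 5) summed to 10401 and 8095 TPM, mesenchyme markers (4 of 4) to 943 and 1252 TPM, and skeletal muscle markers (4 of 4) to 20.8 and 108.7 TPM. In these bulk samples, fewer cells of a type and less RNA per cell cannot be told apart.

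Most of the family was expressed. Of the 41 kinesins, 38 had 1 TPM or more in both pools, where 61.8% of all protein-coding genes did. At 10 TPM or more there were 22 (background 42.4%), and at 30 TPM or more there were 15 (background 24.5%). The median kinesin stood at 14.8 TPM, against 5.47 TPM over all protein-coding genes. The 3 members below 1 TPM were Kif12, Kif28 and Kif2b. When the genes were ordered by mean TPM, each gap between neighbours was set against the standard deviations (SD) of both genes added together. The gap was the larger in 12 of 40 pairs, so the order within most stretches of the list is not resolved by 2 pools.

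Transport kinesins held more transcripts than mitotic kinesins, but through few genes. The transport class summed to 755 TPM in pool 1 and 759 TPM in pool 2 (757 ± 2.79, SD, n = 2), and the mitotic class to 389.5 and 376 TPM (383 ± 9.34, SD, n = 2). The ratio of the sums was 1.98 ± 0.06 (SD, n = 2). The 5 highest transport genes made up 77.3% of the transport sum in pool 1 and 76.4% in pool 2, while the 5 highest mitotic genes made up 68.9% and 67.4% of the mitotic sum.

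The typical member went the other way. The median mitotic kinesin had 30.8 TPM in pool 1 and 35.6 TPM in pool 2, and the median transport kinesin 17.3 and 18.3 TPM. The gene at the mitotic median of mean TPM was Kif20b, whose level depends on the annotation. With the older annotation GENCODE M4 the medians were 19.6 TPM (mitotic) and 12.9 TPM (transport), and over transcripts with a consensus coding sequence (CCDS, a coding region on which annotation groups concur) they were 15.4 and 11.4 TPM. Both classes had 9 members at 10 TPM or more and 7 members at 30 TPM or more in both pools, which is 9 of 13 mitotic and 9 of 15 transport genes. On the scale of mean log2(TPM + 0.1), transport exceeded mitotic by 0.64 in pool 1 and 0.65 in pool 2, a difference of 0.65 ± 0.01 (SD, n = 2). That difference rests on 1 gene, Kif2b at 0: over members at 1 TPM or more it was 0.05. Without Kif2b the class means were 4.45 ± 0.01 for mitotic and 4.50 ± 0.00250 for transport (SD, n = 2).

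**Figure D1:**
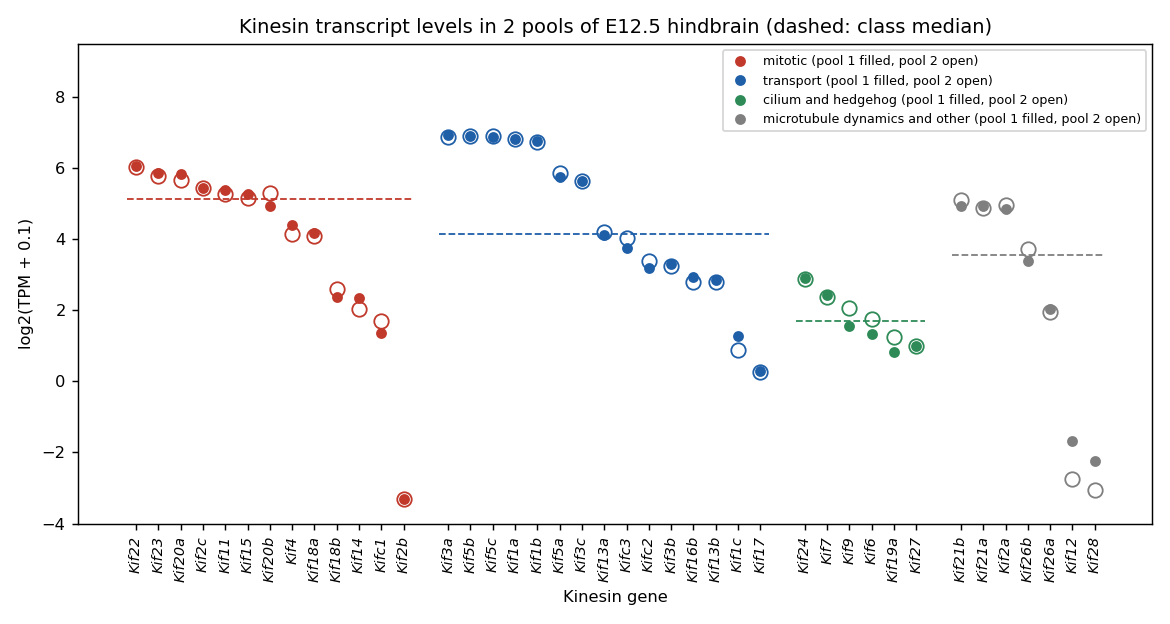
Level of each of the 41 kinesins as log2(TPM + 0.1) in pool 1 (filled) and pool 2 (open), by class and ordered by mean within it, with a dashed line at the class median of mean TPM. The 5 highest transport genes stand at 108 to 121 TPM over all transcripts, above every mitotic gene, while the mitotic median line (35.0 TPM) lies above the transport line (17.8 TPM).

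The classes were also compared by their promoter sequence, which the choice of members did not use. The cell cycle genes homology region (CHR) is a short element, known from many genes whose messages peak late in the cell cycle, through which the DREAM complex of p130, E2F and MuvB proteins holds genes silent in resting cells. It often lies close to the transcription start, with a CCAAT box (the site of the factor NF-Y) upstream. Promoter windows from RefSeq (build GRCm38.p6) run from 250 bases before to 50 bases after a start, and 32 of the 41 kinesins matched one. The 9 without a window were mostly transport genes: Kif5b, Kif5a, Kifc3, Kifc2 and Kif13b. The others were the mitotic gene Kif20a and Kif21b, Kif19a and Kif28. The class shares below leave these genes out. Both strands were searched for TTTGAA or TTCGAA as CHR, CCAAT as CCAAT box, and TTTGGCGC or TTTCGCGC as E2F site. No match of one motif overlapped a match of another in the members.

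Genes were counted, each with a match if any of its windows held one, and 4 kinesins had several windows. A CHR match was present in 10 of 12 mitotic genes (83.3%) and in 1 of 10 transport genes (10.0%) with a window. Of 16522 protein-coding genes in the same table, 19.4% held one. The exceptions among mitotic genes were Kif18a and Kif2b. The transport gene with a match was Kif1a. Its window belongs to a RefSeq start 19471 bases inside the GENCODE gene, and the matching windows of the mitotic genes Kif2c, Kif14 and Kif4 also belong to starts inside the gene, by 3867, 1505 and 328 bases. In the other 7 mitotic genes with a match, the RefSeq start lay within 51 bases of the GENCODE start. In the other classes 2 of 5 cilium genes (Kif24, and Kif27 at a start 4175 bases inside the gene) and 1 of 5 other genes (Kif26b) had a match. A match starting within 50 bases of the transcript start was found in 8 of 12 mitotic genes (66.7%), 1 of 10 transport genes and 4.95% of protein-coding genes. That limit was chosen after the positions were seen. CCAAT box and CHR in the same window, in any order, occurred in 7 of 12 mitotic genes (58.3%), 0 of 10 transport genes and 7.99% of protein-coding genes. In Kif14, 1 of the 7, the CHR match lay upstream of the CCAAT box, 228 and 92 bases before the start. The E2F letters were in the mitotic genes Kif15 and Kif18a, in 0 of 10 transport genes and in 1.22% of protein-coding genes. These are letter matches; no binding was measured.

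The contrast is shown with 3 stretches of 250 bases that end just before the RefSeq start, on the plus strand of GRCm38.p6, for a spindle motor and the transport motors of highest level that have a window. Kif11 is at chr19:37376132-37376381, Kif5c at chr2:49619036-49619285 and Kif3a at chr11:53567119-53567368. Capitals mark matches to the CCAAT box (read here as ATTGG, its reverse complement) and the CHR (read as TTCAAA). In Kif11 they start 45 and 19 bases before the transcript start, in Kif3a there is a CCAAT box 18 bases before it, and in Kif5c there is no match.
Kif11: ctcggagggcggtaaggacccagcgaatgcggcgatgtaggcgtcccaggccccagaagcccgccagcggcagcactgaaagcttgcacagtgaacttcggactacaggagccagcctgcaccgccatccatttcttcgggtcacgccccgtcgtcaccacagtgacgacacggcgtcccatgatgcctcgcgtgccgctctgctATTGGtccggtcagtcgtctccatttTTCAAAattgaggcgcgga
Kif5c: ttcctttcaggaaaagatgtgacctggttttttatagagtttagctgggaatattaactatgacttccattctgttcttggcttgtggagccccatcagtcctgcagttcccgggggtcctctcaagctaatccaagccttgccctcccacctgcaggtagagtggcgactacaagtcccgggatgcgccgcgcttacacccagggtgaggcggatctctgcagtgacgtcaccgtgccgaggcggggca
Kif3a: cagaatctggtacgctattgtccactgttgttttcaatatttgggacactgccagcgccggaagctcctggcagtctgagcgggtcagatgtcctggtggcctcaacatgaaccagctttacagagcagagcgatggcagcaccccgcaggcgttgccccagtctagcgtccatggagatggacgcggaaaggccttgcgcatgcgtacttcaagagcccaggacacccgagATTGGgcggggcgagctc

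The 30 bases around the CHR match nearest to the start are shown for all 10 mitotic genes that have one, so that the shared core and the unlike flanks can be compared. They are written on the strand of the gene in GRCm38.p6, with the CHR in capitals as TTTGAA or as its reverse complement TTCAAA. On minus strands are Kif22 (chr7:127042420-127042449), Kif23 (chr9:61946780-61946809), Kif2c (chr4:117178858-117178887), Kif18b (chr11:102925104-102925133) and Kifc1 (chr17:33890615-33890644). On plus strands are Kif11 (chr19:37376351-37376380), Kif15 (chr9:122951050-122951079), Kif20b (chr19:34922353-34922382), Kif4 (chrX:100626072-100626101) and Kif14 (chr1:136467608-136467637). Kif20b holds the core 2 times in direct succession.
Kif22: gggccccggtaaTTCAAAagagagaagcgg
Kif23: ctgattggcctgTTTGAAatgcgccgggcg
Kif2c: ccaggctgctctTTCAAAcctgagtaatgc
Kif11: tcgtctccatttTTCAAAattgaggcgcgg
Kif15: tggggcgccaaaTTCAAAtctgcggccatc
Kif20b: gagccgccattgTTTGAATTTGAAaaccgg
Kif4: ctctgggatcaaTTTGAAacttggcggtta
Kif18b: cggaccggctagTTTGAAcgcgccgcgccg
Kif14: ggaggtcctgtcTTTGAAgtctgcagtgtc
Kifc1: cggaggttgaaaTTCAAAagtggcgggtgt

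The match started 17 bases before the transcript start in Kif22 and 19 bases before it in Kif11 and Kif15. Counting the start base as 1, it began at base 2 in Kifc1, base 3 in Kif23, base 4 in Kif18b, base 8 in Kif20b and base 20 in Kif4. The matches of Kif2c and Kif14 were farther off, 103 and 228 bases upstream. So 8 of the 10 began between 19 bases before the start and base 20 after it.

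**Figure D2:**
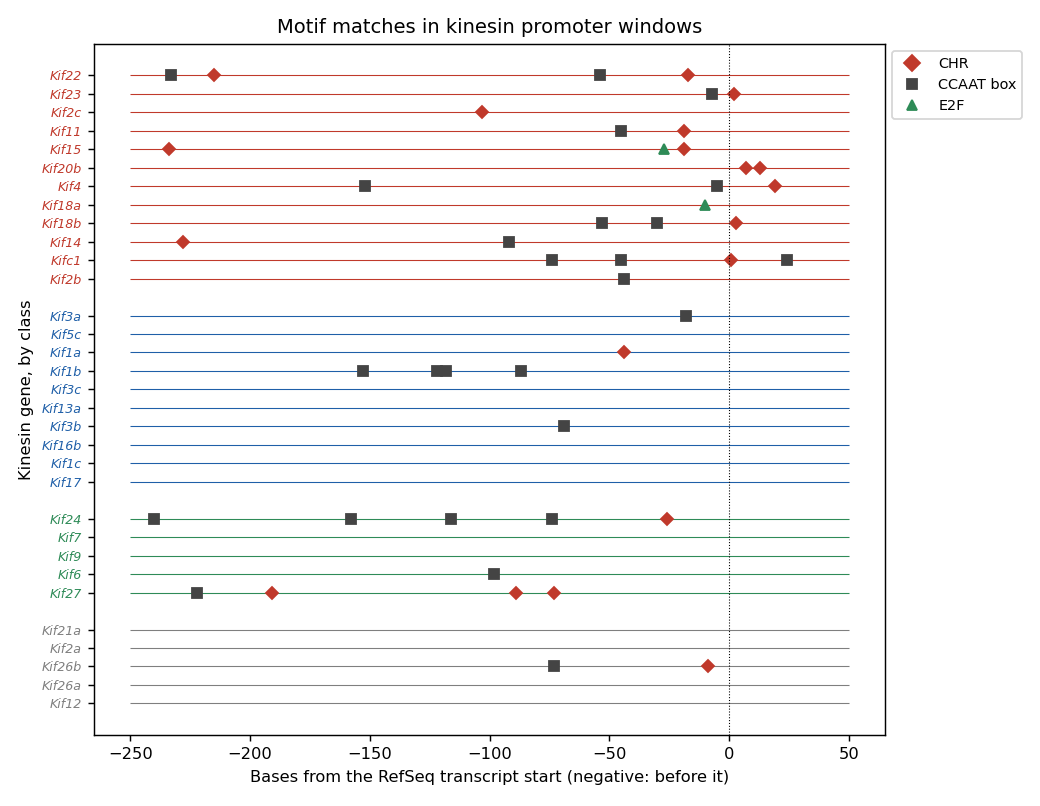
Motif matches in the RefSeq promoter windows of 32 kinesins, by class and ordered by mean TPM; the x axis gives bases from the transcript start, thin lines are windows, and windows of a gene with several starts are drawn on 1 line. CHR matches (red diamonds) appear in 10 of 12 mitotic rows and in 1 of 10 transport rows.

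Among the mitotic kinesins, Kif22, Kif23 and Kif20a had the highest TPM over all transcripts. Kif22 (chr7:127027729-127042471), a chromokinesin that pushes chromosome arms outward, had 67.3 TPM in pool 1 and 65.5 TPM in pool 2. Kif23 (chr9:61915905-61946774), which bundles the central spindle together with Racgap1, had 58.6 and 55.4 TPM. Kif20a, which brings the chromosomal passenger complex to the midzone, had 57.6 and 50.9 TPM. Kif22 exceeded its next neighbour in the order by 9.40 TPM, more than the SD of either gene, while Kif23 and Kif20a overlapped within their spread. Kif23 was lower over CCDS transcripts, at 19.8 ± 1.29 TPM (SD, n = 2), below Kif2c and Kif11.

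Kif2c, Kif11 and Kif15 came next. Kif2c, which removes tubulin at faulty kinetochore attachments, had 43.1 and 43.3 TPM. Kif11 (chr19:37376403-37421859), the tetrameric motor that drives spindle poles apart, had 41.9 and 38.6 TPM from 3935 and 3343 estimated reads. Kif15, a motor that can keep a spindle bipolar when Kif11 is blocked, had 38.8 and 35.6 TPM. Within this group the pools differed by less than 4 TPM for each gene.

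Kif20b, a cytokinesis motor studied in cortical progenitors, had 30.8 and 39.2 TPM, the widest spread among mitotic kinesins (SD 5.99), from 1379 and 1423 estimated reads. Kif4, a chromokinesin that works with Prc1 at the midzone, had 20.9 and 17.6 TPM. Kif18a, which damps the movements of aligned chromosomes, had 18.0 and 17.0 TPM. The last of these came from 1143 and 1002 estimated reads.

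The lower mitotic members were Kif18b, Kif14 and Kifc1. Kif18b, which shortens astral microtubules, had 5.10 and 5.96 TPM. Kif14, which acts with citron kinase in cytokinesis, had 4.97 and 4.05 TPM. Kifc1, the minus-end motor that focuses spindle poles, had 2.47 and 3.16 TPM from 99.02 and 108.5 estimated reads. Its near-identical copy Kifc5b, outside the rule, was listed at 4.16 and 4.20 TPM from 102.0 and 98.5 reads. The division of reads between these copies is uncertain. The deposited posterior SD of the count was 3.83 reads in pool 1 and 3.97 in pool 2 for each copy, and error beyond that was not computed. Kif2b, a kinetochore depolymerase related to Kif2c, had 0 reads in both pools, which allows up to 0.0700 and 0.0760 TPM in pools 1 and 2 (that of 3 reads, counting error only).

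Over all transcripts, the transport class was led by 5 genes of nearly equal level. Kif3a (chr11:53567379-53601967), the shared subunit of heterotrimeric kinesin, had 123.7 and 118.8 TPM. Kif5b and Kif5c are heavy chains of conventional kinesin, the first ubiquitous and the second enriched in neurons. Kif5b had 120.5 and 120.6 TPM, and Kif5c (chr2:49619298-49774778) had 118.2 and 120.7 TPM from 15857 and 14920 estimated reads. Kif1a (chr1:93015464-93101951), which carries precursors of synaptic vesicles, had 112.2 and 112.3 TPM, and Kif1b (chr4:149176319-149307693), which carries mitochondria or vesicles according to its isoform, had 109 and 107 TPM. The order of Kif3a, Kif5b and Kif5c was not resolved beyond their spread, while Kif1b exceeded the next gene, Kif22, by 41.4 TPM. Over CCDS transcripts these genes were unequal, with Kif5c at 119, Kif1b at 72.8, Kif3a at 61.8, Kif5b at 46.1 and Kif1a at 39.6 TPM on average, and Kif22, at 59.2 TPM, stood above Kif5b and Kif1a.

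Within conventional kinesin, the neuronal heavy chain Kif5a was the lowest of its group over all transcripts, though not over CCDS transcripts, at 54.2 and 58.8 TPM, and Kif5c exceeded it 2.12-fold (SD 0.09, n = 2). The 3 heavy chains summed to 297 ± 5.08 TPM (SD, n = 2). Of the light chains that link them to cargo, Klc1 was the highest with 333 and 342.5 TPM. Klc2 had 43.5 and 51.7 TPM, Klc4 had 31.0 and 29.0 TPM and Klc3 had 3.21 and 2.49 TPM. Klc1 alone was thus above the summed heavy chains in both pools.

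Heterotrimeric kinesin pairs Kif3a with Kif3b or Kif3c and with the adaptor Kifap3, and its form with Kif3b builds cilia. Its subunits were unequal. Kif3c had 49.7 TPM in both pools, Kifap3 had 57.8 and 67.0 TPM, and Kif3b had 9.82 and 9.46 TPM. Over all transcripts, Kif3a therefore exceeded Kif3c 2.44-fold (SD 0.07) and Kif3b 12.6-fold (SD 0.02, n = 2). The gaps to Kif3c and Kif3b were smaller over CCDS transcripts. There Kif3a exceeded Kif3b 6.42-fold (SD 0.74, n = 2), and Kif3a averaged 61.8 TPM against 45.4 TPM for Kif3c. Kif17, a homodimeric relative that carries receptors in dendrites, had 1.13 and 1.11 TPM from 60 and 56 estimated reads.

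The remaining transport motors were lower. Kif13a, which moves endosomes, had 17.3 and 18.3 TPM. Kif13b and Kif16b, motors of related structure that carry vesicles and endosomes, had 7.21 and 6.81 TPM and 7.54 and 6.82 TPM. Kif1c, a relative of Kif1a, had 2.31 and 1.74 TPM. With Kif1a and Kif1b these genes summed to 254 ± 1.64 TPM (SD, n = 2). The minus-end motors Kifc3 and Kifc2 had 13.4 and 16.2 TPM and 8.99 and 10.4 TPM.

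All 6 kinesins of the cilium and of hedgehog signalling were detected, at 1.89 to 7.36 TPM on average, and 0 of 6 reached 10 TPM in both pools. Kif24, which restrains cilium assembly at the mother centriole, had 7.41 and 7.31 TPM. Kif7, which organises the ciliary tip and is needed for normal Gli processing, had 5.32 and 5.13 TPM. Kif27, its close relative linked to motile cilia, had 1.89 and 1.90 TPM. Kif9 had 2.85 and 4.09 TPM, Kif6 had 2.44 and 3.29 TPM and Kif19a, which limits the length of motile cilia, had 1.67 and 2.28 TPM.

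Of the kinesins that act on microtubule length, Kif21b and Kif21a, which pause microtubule growth, had 30.3 and 34.3 TPM and 30.7 and 29.6 TPM. Kif2a, a depolymerase that trims axon branches and also serves spindle poles, had 28.6 and 30.9 TPM. These 3 genes stood close to the mitotic median. Kif26b and Kif26a, atypical members that lack ATPase activity, had 10.3 and 13.2 TPM and 3.98 and 3.80 TPM. Kif12 had 0.21 and 0.05 TPM and Kif28 had 0.11 and 0.02 TPM, each from under 5 reads a pool.

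Gene-level TPM adds all annotated transcripts, and for several kinesins much of the sum was in short or non-coding ones. Of the 38 members at a mean of 1 TPM or more, 34 had the same leading transcript in both pools (the exceptions were Kifc2, Kif13b, Kif19a and Kif17), and in 30 the leading transcript of pool 1 was a protein-coding one with a CCDS. The leading transcript had a CCDS in 11 of 12 mitotic and 10 of 15 transport genes. Transcripts with a CCDS held under 50% of the gene's TPM in both pools in 12 genes, 3 of them mitotic and 6 transport. None of these counts was made over all genes, so whether kinesins differ from other genes in this was not tested.

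Kif5c and Kif11 were nearly pure. The full-length Kif5c-201 had 117.5 and 119.9 TPM, or 99.4% and 99.3% of its gene, and Kif11-201 had 41.4 and 38.3 TPM, or 98.6% and 99.2%. In Kif5b, by contrast, the CCDS transcript Kif5b-201 of 6032 bases had 45.0 and 47.2 TPM, below Kif5b-202, a model of 2006 bases with no CCDS, at 61.0 and 57.1 TPM. Over CCDS transcripts the heavy chains of conventional kinesin were therefore far apart, with Kif5c at 119 ± 1.71, Kif5a at 56.5 ± 3.23 and Kif5b at 46.1 ± 1.58 TPM (SD, n = 2).

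Kif1b makes a long protein, with a tail that binds vesicles, and a short one linked to mitochondria. The long form Kif1b-203 (1816 codons) had 51.7 and 52.5 TPM and the short form Kif1b-201 (1150 codons) had 19.8 and 21.6 TPM, so the long form was the higher in both pools. A retained-intron model of 587 bases, Kif1b-205, had 29.5 and 26.3 TPM. In Kif1a the leading model was Kif1a-206, of 528 bases and 109 codons, at 44.0 and 45.0 TPM, ahead of the full-length Kif1a-204 (1697 codons) at 28.8 and 30.3 TPM. Kif3a was led by Kif3a-206, a model of 770 bases annotated for nonsense-mediated decay, at 41.6 and 39.1 TPM, ahead of Kif3a-203 (701 codons) at 32.0 and 30.7 TPM.

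Among mitotic kinesins, CCDS transcripts held under 50% of the gene's TPM in both pools in Kif23, Kif15 and Kif20b. Of these, only Kif20b was led by a model without a CCDS. Kif23-201, the CCDS form, had 20.7 and 18.9 TPM, or 35.4% and 34.1% of its gene. Kif15-201 had 13.6 and 15.7 TPM, or 35.0% and 43.9%. In Kif20b the CCDS form Kif20b-201 (1774 codons) had 4.24 and 3.32 TPM and a second full-length form, Kif20b-203 (1734 codons), had 6.40 and 8.14 TPM, both below Kif20b-202, of 740 bases, at 11.9 and 13.7 TPM. In the transport gene Kif13b, the CCDS transcript was listed at 0 in both pools, while Kif13b-203, a model of 1847 codons without a CCDS, had 3.33 and 2.58 TPM. Shares of transcripts rest on how shared reads were divided, and no error of that division was computed here.

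Over CCDS transcripts alone, an alternative added after the values were seen, the class sums were 267 ± 8.20 TPM for mitotic and 479 ± 18.0 TPM for transport (SD, n = 2), a ratio of transport to mitotic of 1.79 ± 0.12. The mean log2 difference, transport minus mitotic, was 0.17 over all members and -0.37 over members at 1 TPM or more at gene level. The direction of this difference is therefore not settled. It changed with the filter that removes Kif2b and with the transcripts summed, and Kif13b at 0 lowers the transport mean. The transport gene Kif13b entered both values at 0 TPM, though its long model without a CCDS, Kif13b-203, had 3.33 and 2.58 TPM. The difference with Kif13b left out was not computed.

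**Figure D3:**
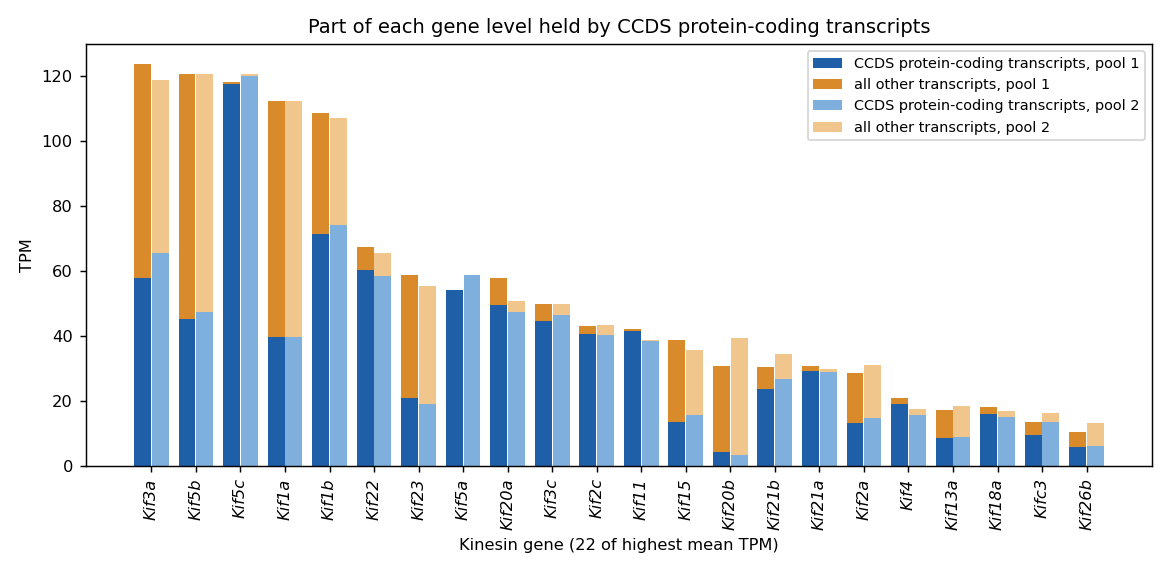
TPM of the 22 kinesins of highest mean level in pool 1 (darker, left bar) and pool 2 (lighter, right bar), split into CCDS protein-coding transcripts (blue, from 0) and all other transcripts (orange, on top). Kif5c and Kif11 are almost all blue, while Kif5b, Kif1a, Kif23 and Kif20b are mostly orange in both pools.

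The libraries were also quantified on GENCODE M4, an older and smaller annotation, from the same reads. Of 38 kinesins at a mean of 1 TPM or more, 5 were at least 1.5-fold higher with M21 (background 5.15% of such protein-coding genes) and 0 were at least 1.5-fold lower (background 1.02%). They were Kif20b (2.54-fold), Kif13b (2.21-fold), Kif23 (1.95-fold), Kif15 (1.90-fold) and Kif13a (1.51-fold). Kif5b, Kif1a and Kif3a, whose sums were also largely outside CCDS transcripts, were at 1.01-fold, 0.97-fold and 1.00-fold.

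In Kif23 the estimated reads of pool 1 were 2025 with M21 and 1855 with M4, while the mean transcript length of the gene was 1830 bases with M21 and 3423 bases with M4. Kif20b had 1379 and 1349 reads at lengths of 2342 and 5563 bases, and Kif15 had 1902 and 1711 reads at 2555 and 4815 bases. For these the reads were close and the length differed, and TPM divides by length. In Kif13b the reads differed too, 693 with M21 against 353 with M4. With M4 the 5 highest transport genes were between 111 and 126 TPM on average.

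**Figure D4:**
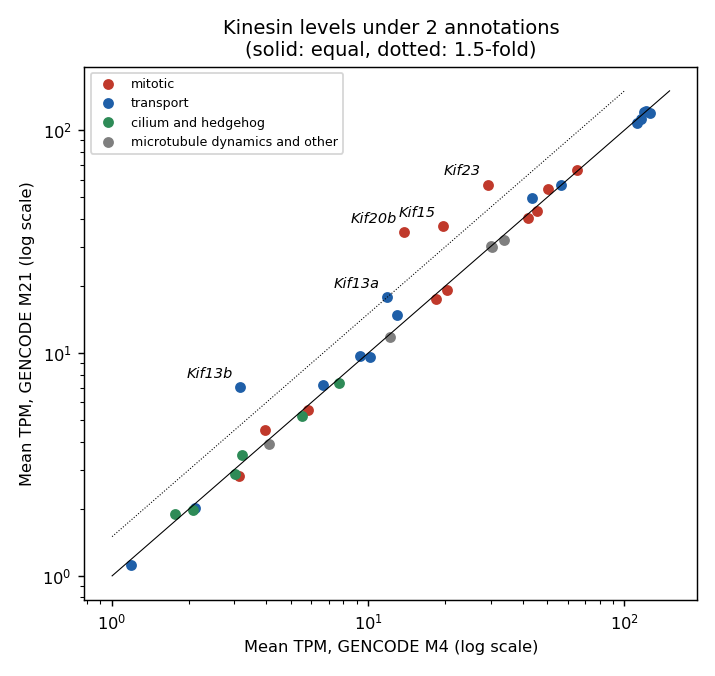
Mean TPM of kinesins at 1 TPM or more with GENCODE M4 (x, log scale) and GENCODE M21 (y, log scale), coloured by class, with a solid line at equality and a dotted line at 1.5-fold. Most genes lie on the line of equality, and Kif20b, Kif13b, Kif23, Kif15 and Kif13a lie on or above the dotted line.

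Between the pools, which are replicates of 1 group, kinesins differed little. Ratios were taken from estimated reads after scaling by trimmed mean of M-values, for the 38 kinesins with a mean of 50 reads or more. A difference of 2-fold or more was seen in 0 of 38, where 1.00% of 14989 genes had one (0.587% higher in pool 2 and 0.414% higher in pool 1). At a difference of 25% or more, 2 kinesins were higher in pool 2 (background 5.89%) and 1 was higher in pool 1 (background 5.60%), together 3 of 38 against 11.5%. The median size of the log2 ratio was 0.08 over kinesins, 0.09 over mitotic and 0.05 over transport kinesins, against 0.10 over all genes.

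The 3 genes past the 25% limit were of low or middle level. Kifc3 had 658 and 792 estimated reads, a log2 ratio of pool 2 over pool 1 of 0.38 (95% counting interval 0.23 to 0.53). Kif6 had 106 and 132 reads and a log2 ratio of 0.42 (0.05 to 0.81). Kif1c had 234 and 161 reads and a log2 ratio of -0.43 (-0.73 to -0.13). The labels do not say whether reads were counted by strand, so reads of members that overlap another gene may be shared with it.

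By direction, 5 of 12 mitotic and 11 of 15 transport kinesins were higher in pool 2, where 51.4% of all genes were. The class medians of the log2 ratio were -0.02 for mitotic and 0.02 for transport, within the median size of 0.10 over all genes. Among the abundant mitotic motors, Kif4 had a log2 ratio of -0.28 (-0.38 to -0.18), Kif11 -0.13 (-0.19 to -0.06), Kif20a -0.11 (-0.18 to -0.04) and Kif20b 0.15 (0.05 to 0.26). These intervals cover counting error only, and 12 of the 38 kinesins had one that left out 0. That share was not computed over all genes, so nothing is read from it. All 5 markers of dividing cells were lower in pool 2 (median log2 ratio -0.06, smaller in size than the 0.10 over all genes). In pool 2, 5 of 7 neuron markers were higher (median 0.11). So were all 4 skeletal muscle markers (median 2.41), all 6 hindbrain markers (median 0.40) and all 4 mesenchyme markers (median 0.36). Lower in pool 2 were 4 of 5 erythroid markers (median -0.37) and 4 of 6 progenitor markers (median -0.10). The part of these differences in cell makeup in the kinesin values was not tested.

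**Figure D5:**
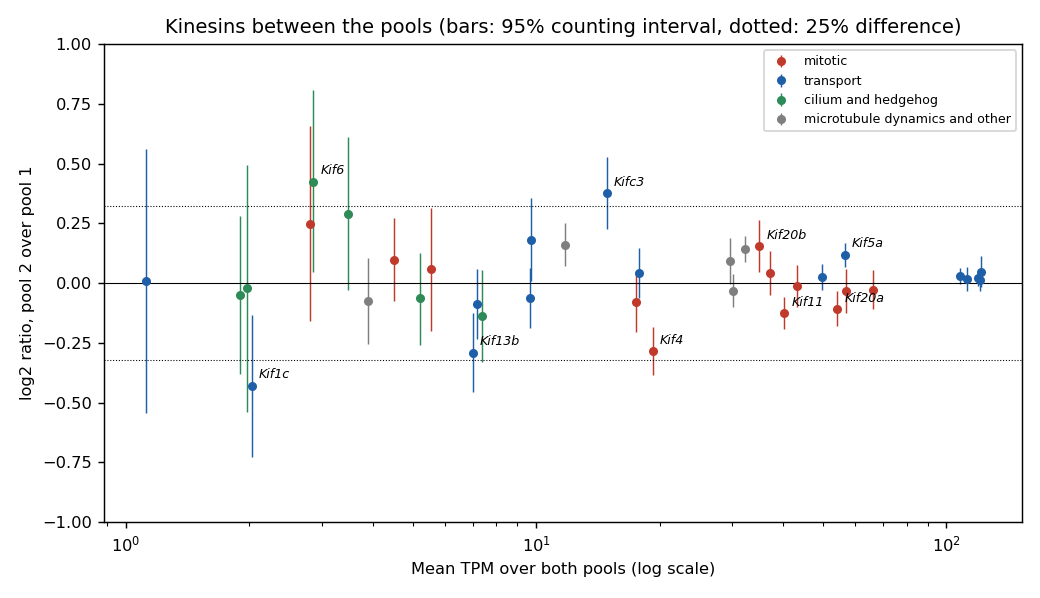
Log2 ratio of pool 2 over pool 1 against mean TPM (log scale) for the 38 kinesins with 50 or more mean reads, coloured by class; bars are 95% counting intervals and dotted lines mark a 25% difference. Kif6, Kifc3 and Kif1c lie outside the dotted lines, and the 5 transport genes above 100 TPM lie within 0.05 of zero.

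The partners of the motors were expressed throughout. All 14 measured kinesin light chains and adaptors had 1 TPM or more in both pools, where 61.8% of all protein-coding genes did. The median of the 14 was 45.3 TPM. The highest were Klc1 with 338 ± 6.97 TPM, Fez1, an adaptor for axonal transport, with 298 ± 1.68 TPM, and the JIP scaffolds Mapk8ip1 with 87.5 ± 2.31 and Mapk8ip3 with 65.8 ± 0.30 TPM (SD, n = 2).

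Dynein, with its activator dynactin, carries cargo in the direction opposite to most kinesins. All 20 listed subunits and regulators had 1 TPM or more in both pools (background 61.8%), with a median of 97.9 TPM. The light chains Dynll1 and Dynlrb1 had 1033 ± 54.9 and 343 ± 9.26 TPM, and the dynactin subunits Actr1a and Dctn2 had 187 ± 2.11 and 182 ± 2.14 TPM (SD, n = 2). The motor chain Dync1h1 had 74.6 and 62.7 TPM, below each of the 5 leading transport kinesins over all transcripts. Over CCDS transcripts those kinesins averaged 119 (Kif5c), 72.8 (Kif1b), 61.8 (Kif3a), 46.1 (Kif5b) and 39.6 TPM (Kif1a). Dync1h1 was not split by transcript, so the order over CCDS transcripts was not compared.

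All 16 spindle partners of mitotic kinesins had 1 TPM or more in both pools (background 61.8%), with a median of 64.3 TPM. Cenpe, the kinetochore kinesin that tethers chromosomes to microtubule ends, had 18.6 and 18.4 TPM, next to Kif4 and Kif18a. Birc5, a subunit of the passenger complex that Kif20a carries, had 143 ± 5.92 TPM, and Cdca8 of the same complex had 102 ± 3.05 TPM. Racgap1, the partner of Kif23, had 140 ± 3.25 TPM, and Prc1, the partner of Kif4, had 87.8 ± 4.24 TPM (SD, n = 2). In pool 1, 13 of these 16 genes were higher, where 48.6% of all genes were, with a median log2 ratio of -0.09; of the mitotic kinesins, 7 of 12 were. A CHR match was in 10 of the 13 spindle partners with a promoter window (76.9%) and in 3 of 15 dynein and dynactin genes (20.0%).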

How the data were processed

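Each pool had gene and transcript tables on mm10 for GENCODE M21 and GENCODE M4, per the deposited read-me files. The quantification program and its settings are not given in the sources used. Expected counts, as deposited, are estimated reads that need not be whole. TPM values were computed by the authors over genes, spike-ins and 26248 tRNA entries together. The deposited isoform shares are in percent of the gene; shares here were computed from transcript TPM. Per the labels, 10 ng of RNA entered each library, with oligo-dT priming and tagmentation, which can favour some parts of long transcripts. No molecular identifiers are named, so intervals cover counting error only.

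The members, classes and lists were chosen with earlier results of these data known. Gene symbols came from GENCODE M21 and matched 55536 of 55536 identifiers. Classes were compared by TPM, medians and mean log2(TPM + 0.1), which understates differences of low genes. With 1 group of 2 pools, no test was run. For ratios, expected counts were rounded for edgeR 4.0.16 (trimmed mean scaling) and, as an alternative, DESeq2 1.42.0 size factors, in R 4.3.3, with a prior count of 0.5. The scaling step was tested on simulated data. Counting intervals are 95%, and a gene with 0 reads was given the TPM of 3 counts as its upper limit. All other values came from Python 3.11.15 with pandas 2.3.3. Promoter windows are RefSeq's on GRCm38.p6. Every member is named; of partner lists, the 4 genes of highest TPM and Cenpe, plus the named subunits Klc2, Klc3, Klc4, Kifap3 and Dync1h1, which were added after their values were seen. Kif25 was listed but not found under the rule, Kif28 was found and placed with the other roles, and Kifbp is in the table as Kif1bp. Protein sequences were not used here.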

Additional observations from a re-analysis of the deposited data

How the results depend on the processing

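The transport minus mitotic difference of 0.65 moved to 0.44 with a pseudocount of 1, 0.0476 with members under 1 TPM in both pools left out, 0.75 with M4, 0.70 with Kif21a and Kif21b counted as transport, 3.27 without members that overlap another gene (3 mitotic, Kif2b among them, and 5 transport left) and 0.17 over CCDS transcripts. It reversed to -0.37 over CCDS transcripts with the 1 TPM filter, which left the transport gene Kif13b in at 0 TPM. Without 1 pool it was 0.64 to 0.65. The mitotic median of 35.0 TPM was 19.6 with M4, 38.6 after rescaling TPM over genes, 15.4 over CCDS transcripts and 30.8 to 35.6 in single pools. The transport median of 17.8 TPM was 12.9, 19.6, 11.4 and 17.3 to 18.3. In each of these the mitotic median was the higher. Scaling by spike-in totals shifted the median of all genes by -0.37 (log2), the mitotic median ratio to -0.40 and the transport median ratio to -0.36, and put 26 kinesins past a 25% difference. Of all results under alternatives, 40 stayed within the set limits, 16 moved and 1 reversed. The CCDS settings and the limit of 50 bases for promoter matches were chosen after seeing the data. The cause of each shift was not tested beyond what its construction shows. No paired analysis was possible because there is 1 group. Every SD rests on 2 pools.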
